A study of Mus musculus with 9 samples.

Results

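The interleukin-1, interleukin-18 and interleukin-33 system comprises 10 genes here. They encode the agonists interleukin-1 alpha (Il1a), interleukin-1 beta (Il1b), interleukin-18 (Il18) and interleukin-33 (Il33), the antagonist Il1rn, the receptors Il1r1, Il1r2 and Il1rl1, and the inflammasome proteins Casp1 and Nlrp3. A probe was taken for a gene where its symbol in the platform annotation, updated through a RefSeq gene table, was that gene. The platform writes the symbols as IL1A, IL1B, IL1RN, IL1R1, IL1R2, IL18, IL33, CASP1 and NLRP3. This found 1 probe each for 9 of the 10 genes, which is 9 of 26423 probes on the array and 9 of 17742 named genes. No probe carried the symbol of Il1rl1, the receptor of interleukin-33, or an older synonym of it, and that gene was not analysed here.

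The 9 one-colour arrays carried skin RNA from BALB/c females, in 3 groups of 3. All mice had shaved back skin treated daily for 7 days. The vanillin group received imiquimod on the skin together with 100 mg/kg of vanillin, the aroma compound of vanilla, by mouth. The IMQ group received imiquimod alone, an agonist of toll-like receptor 7 that induces psoriasis-like inflammation in mouse skin, and the mock group received Vaseline cream. No group received vanillin without imiquimod. Whether the 3 arrays of a group stand for separate mice is not stated in the labels. The p-values below therefore reflect the spread among these arrays, and that spread may be technical.

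Interleukin-1 alpha and interleukin-1 beta act on the same receptor, which recruits the accessory protein Il1rap and signals through the adaptor Myd88 and the kinases of the Irak family to NF-kB. Il1rn occupies that receptor without signalling, and Il1r2 is a decoy that binds the cytokine without passing on a signal. Interleukin-1 beta and interleukin-18 are made as inactive precursors that caspase-1 cuts once an inflammasome such as that of Nlrp3 has formed. Interleukin-1 alpha and interleukin-33 are stored in cells of barrier tissues, keratinocytes of the skin among them, and act as alarm signals when cells are damaged. The arrays measured RNA, so precursor cutting and cytokine release are outside these data.

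Values are log2 of the normalised intensity of a probe. A gene was called higher or lower where the limma test gave a Benjamini-Hochberg adjusted p under 0.05 over all 26423 probes. Intensities depend on the probe, so levels are compared between groups for 1 gene and never between genes. Array medians ran from 629 to 631 in linear intensity. The samples are labelled skin, but the extraction protocol speaks of muscle. Suprabasal keratinocyte markers had a median intensity percentile of 99.7 among all probes, and skeletal muscle markers one of 98.3. Array pairs correlated at 0.984 to 0.996 within groups and at 0.952 to 0.980 between groups, computed over probes, which do not count as replicates.

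**Figure D1:**
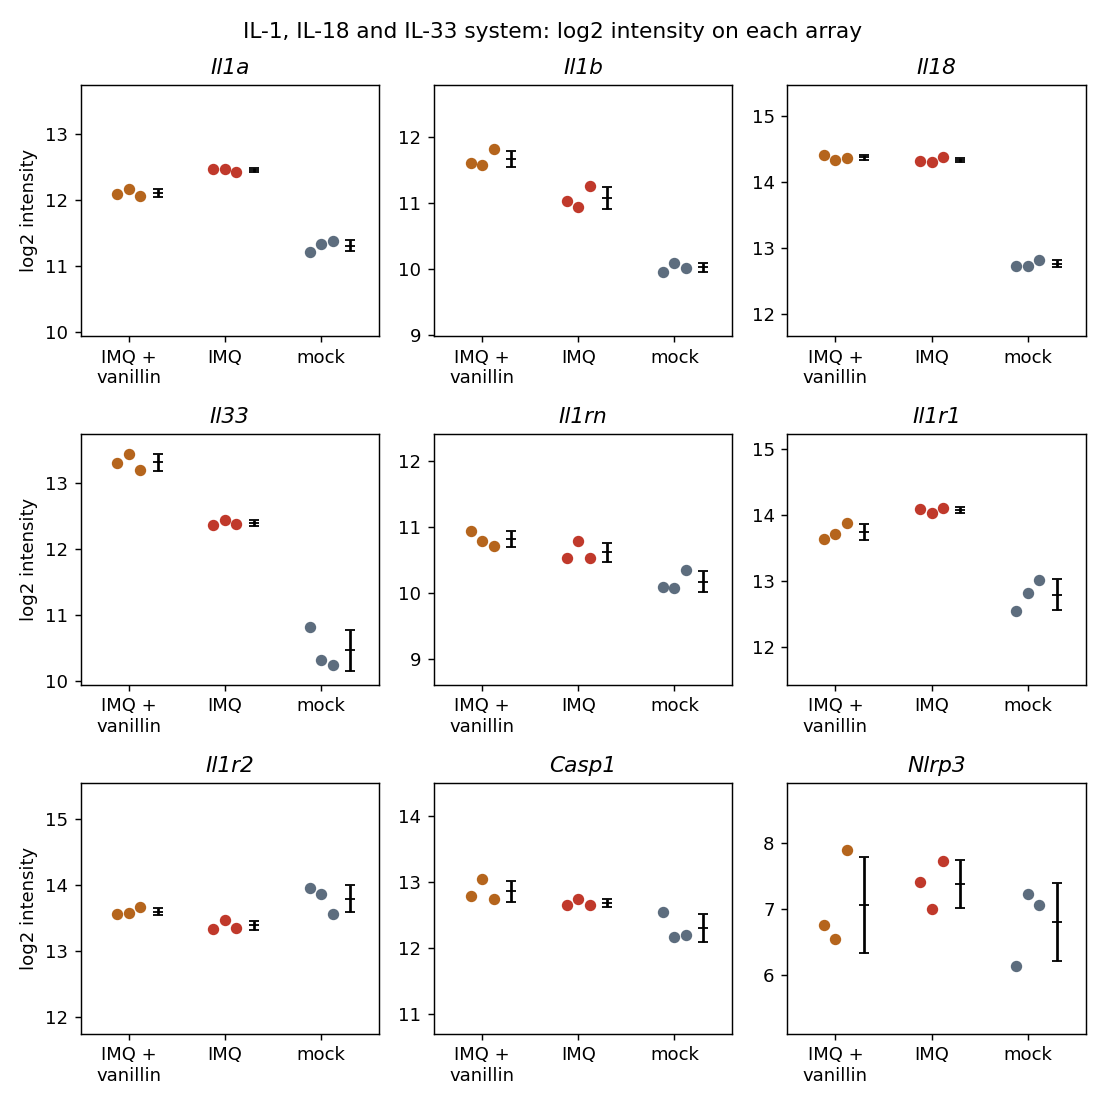
Log2 intensity of the 9 measured genes of the system on each array, with the vanillin group left, IMQ in the middle and mock right. Points are single arrays, the bar beside them is the mean ± SD (n = 3), and every panel spans the same number of log2 units. Il1b and Il33 were highest in the vanillin group, Il1a was highest in IMQ, and Il18 read 14.31 to 14.42 in both imiquimod-treated groups, above mock.

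Most genes of the system were higher in imiquimod-treated skin than in mock skin. In IMQ against mock 8 of the 9 measured genes were called, beside 53.6% of all probes. Of these 7 were higher, beside 24.0% of all probes, and 1 was lower, beside 29.6%. The median log2 difference of the 9 genes was 1.05, against a median of -0.04 over all probes. In the vanillin group against mock 7 of 9 were called, beside 26.7% of all probes. All 7 were higher (11.9% of all probes) and 0 lower (14.7%), and the median difference was 0.80, against 0.01 over all probes. In the vanillin group against IMQ 3 of 9 were called, 2 higher and 1 lower, beside 41.2% of all probes called, 24.3% higher and 17.0% lower, and the median difference was 0.18, against 0.03 over all probes. The 3 of 9 called in that last comparison were not above the share of all probes. Groups did not overlap for 8 of 9 genes in IMQ against mock (68.0% of all probes), 6 of 9 in vanillin against IMQ (58.5%) and 7 of 9 in vanillin against mock (37.8%). The comparisons share arrays and are not independent of each other.

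Among the agonists, Il33 read 13.29, 13.44 and 13.19 on the vanillin arrays, 12.36, 12.44 and 12.37 on the IMQ arrays, and 10.82, 10.32 and 10.24 on the mock arrays. No array of one group overlapped with another group, and the order was vanillin, IMQ, mock. In IMQ against mock Il33 rose 3.81-fold, a log2 difference of 1.93 ± 0.15 (SE, limma adjusted p = 2.36e-05). In the vanillin group it rose by a further 0.92 ± 0.15 over IMQ (SE, limma adjusted p = 0.00296), a 1.89-fold difference. Against mock it was 7.20-fold higher with vanillin (2.85 ± 0.15), a difference at percentile 99.8 of all probes. The 3 differences held their call in all 17 alternative settings, with ranges of 1.82 to 2.11, 0.85 to 0.98 and 2.74 to 3.03.

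Il1b followed the same order. Its log2 intensities were 11.61, 11.58 and 11.81 in the vanillin group, 11.03, 10.94 and 11.26 in IMQ and 9.96, 10.09 and 10.02 in mock skin, so the 3 groups did not overlap. Against mock Il1b was 2.08-fold higher with imiquimod (1.05 ± 0.11) and 3.13-fold higher with imiquimod and vanillin (1.64 ± 0.11, SE, limma adjusted p = 1.64e-05). Vanillin added to imiquimod gave a 1.51-fold higher level than imiquimod alone (0.59 ± 0.11, SE, limma adjusted p = 0.00437).

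Il1a, the other agonist of the same receptor, moved the opposite way when vanillin was added. It read 12.09, 12.17 and 12.06 in the vanillin group, 12.47, 12.46 and 12.42 in IMQ and 11.21, 11.33 and 11.37 in mock skin. The IMQ arrays were highest, the vanillin arrays lay between, and no groups overlapped. Imiquimod raised Il1a 2.22-fold over mock (1.15 ± 0.08, SE, limma adjusted p = 1.42e-05). In the vanillin group it fell by 0.34 ± 0.08 relative to IMQ (SE, limma adjusted p = 0.0109), with adjusted p up to 0.0489 over the alternatives, and it stayed 1.75-fold above mock (0.80 ± 0.08). In vanillin against IMQ 3 of 9 members were called, Il1a lower and Il1b and Il33 higher, beside 41.2% of all probes called. The agonist Il18 gave 0.03 and was not called. The receptor gene Il1r1 gave the same difference as Il1a in vanillin against IMQ (-0.34), but was not called (limma adjusted p = 0.0616).

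Il18 was raised to a like level in both imiquimod-treated groups. It read 14.42, 14.34 and 14.37 with vanillin, 14.33, 14.31 and 14.38 in IMQ and 12.73, 12.74 and 12.83 in mock skin. Both treated groups lay far above mock and overlapped with each other. The rise in IMQ over mock was 2.98-fold (1.58 ± 0.08, SE, limma adjusted p = 2.17e-06). Vanillin against IMQ gave 0.03 ± 0.08 (SE, limma adjusted p = 0.737), and the 95% confidence interval of -0.14 to 0.21 corresponds to folds of 0.909 to 1.15.

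**Figure D2:**
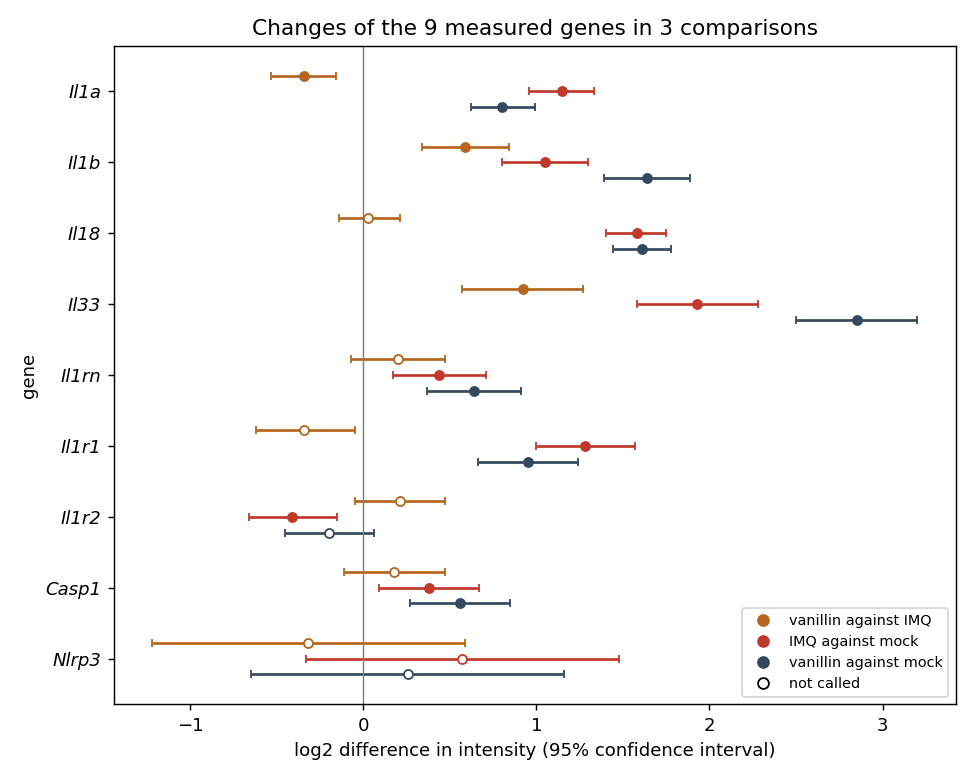
Log2 difference in intensity with its 95% confidence interval (limma, 9 arrays) for each measured gene in 3 comparisons, filled where called and open where not. For vanillin against IMQ the intervals of Il1b and Il33 lie above 0 and those of Il1a and Il1r1 below 0, although Il1r1 was not called. The intervals of Nlrp3 are the widest of the 9 genes.

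The antagonist gave a smaller log2 difference than the agonists in IMQ against mock. Il1rn read 10.94, 10.78 and 10.71 in the vanillin group, 10.53, 10.78 and 10.52 in IMQ and 10.08, 10.07 and 10.35 in mock skin. Both treated groups lay above mock and overlapped with each other. It rose 1.36-fold in IMQ over mock (0.44 ± 0.12, SE, limma adjusted p = 0.0129), a call lost without IMQ replicate 2 (0.36, adjusted p = 0.0511). In the vanillin group it rose 1.56-fold over mock (0.64 ± 0.12, SE, limma adjusted p = 0.00435). Vanillin against IMQ gave 0.20 ± 0.12 (adjusted p = 0.209, 95% confidence interval -0.07 to 0.47).

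To set agonist against antagonist, the log2 difference between their probes was taken within each array and compared between groups. It shows unequal change only. Il1a minus Il1rn was 0.71 higher in IMQ than in mock arrays, and it changed by -0.54 in vanillin against IMQ arrays. Il1b minus Il1rn was 0.61 higher in IMQ than in mock arrays and 0.39 higher in vanillin than in IMQ arrays. The groups of 3 arrays did not overlap in these comparisons except in the last. The exact two-sided permutation test gave p = 0.1 for the first 3, the smallest value that 3 against 3 arrays allow, and p = 0.200 for the last. Over the 8 such comparisons made the adjusted values were 0.114 and 0.200. With 3 against 3 arrays no such comparison could reach 0.05, so the test says nothing either way.

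The signalling receptor and the decoy receptor changed in opposite directions with imiquimod. Il1r1, which transmits the signal, read 13.63, 13.72 and 13.88 in the vanillin group, 14.09, 14.03 and 14.11 in IMQ and 12.55, 12.82 and 13.01 in mock skin. The 3 groups did not overlap, and IMQ was highest. It rose 2.44-fold in IMQ over mock (1.28 ± 0.13, SE, limma adjusted p = 6.88e-05) and 1.93-fold in the vanillin group over mock (0.95 ± 0.13). Vanillin against IMQ gave -0.34 ± 0.13 (SE, limma adjusted p = 0.0616) and was not called. That comparison was called in 9 of 17 alternatives, among them those without mock replicate 1 (adjusted p = 0.0223), mock replicate 3 (0.0406) or vanillin replicate 3 (0.0364).

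The decoy Il1r2 read 13.56, 13.57 and 13.66 with vanillin, 13.34, 13.47 and 13.35 in IMQ and 13.96, 13.86 and 13.56 in mock skin. The vanillin arrays lay above the IMQ arrays and overlapped with mock. It fell by 0.41 ± 0.11 in IMQ relative to mock (SE, limma adjusted p = 0.0140), a call lost without IMQ replicate 1 (adjusted p = 0.0538) or 3 (0.0504). Neither vanillin against IMQ (0.21 ± 0.11, adjusted p = 0.165) nor vanillin against mock (-0.20 ± 0.11, adjusted p = 0.239) was called, although vanillin against mock was called without mock replicate 3 (-0.32, adjusted p = 0.0448). Within arrays Il1r1 minus Il1r2 was 1.69 higher in IMQ than in mock, and changed by -0.54 in vanillin against IMQ. The groups did not overlap in either case. The exact permutation p was 0.1, the smallest value that 3 against 3 arrays allow, so that test cannot decide.

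Casp1, the enzyme that cuts the precursors, read 12.79, 13.04 and 12.74 with vanillin, 12.64, 12.74 and 12.65 in IMQ and 12.54, 12.16 and 12.19 in mock skin. Both treated groups lay above mock. It rose 1.47-fold in the vanillin group over mock (0.56 ± 0.13, SE, limma adjusted p = 0.0115) and 1.30-fold in IMQ over mock (0.38 ± 0.13, SE, limma adjusted p = 0.0338). The second call was lost without mock replicate 2 or 3 or any 1 of the IMQ arrays (adjusted p = 0.0720 to 0.109). Vanillin against IMQ gave 0.18 ± 0.13 (adjusted p = 0.279).

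Nlrp3 was dim, at an intensity percentile of 22.1. It read 6.75, 6.54 and 7.89 in the vanillin group, 7.40, 7.00 and 7.73 in IMQ and 6.13, 7.22 and 7.05 in mock skin, and all groups overlapped. No comparison was called, with limma adjusted p = 0.254 (IMQ and mock), 0.548 (vanillin and IMQ) and 0.679 (vanillin and mock). The 95% confidence interval for vanillin against IMQ ran from -1.22 to 0.59, an interval that holds a difference of the size measured for Il1a. With array weights that comparison was called lower (-0.64, limma adjusted p = 0.0436), beside 61.3% of all probes called.

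Promoter sequence is shown for the 4 agonists and the antagonist. All 5 were called higher in IMQ than in mock skin. So were Il1r1 and Casp1, which are not shown and whose windows held no match. In vanillin against IMQ Il1b and Il33 were called higher, Il1a lower, and Il18 and Il1rn were not called. The lines give, from RefSeq on GRCm38.p6, the 250 bases before a start site, 5′ to 3′ on the strand of the gene, with motif matches in capitals. The windows are chr2:129309973-129310222 (minus strand) for Il1a, chr2:129371140-129371389 (minus) for Il1b, chr9:50554450-50554699 (plus) for Il18, chr19:29924863-29925112 (plus) for Il33 and chr2:24336610-24336859 (plus) for Il1rn. For Il33 and Il1rn this is the first of several windows, and their other windows held no match.
Il1a: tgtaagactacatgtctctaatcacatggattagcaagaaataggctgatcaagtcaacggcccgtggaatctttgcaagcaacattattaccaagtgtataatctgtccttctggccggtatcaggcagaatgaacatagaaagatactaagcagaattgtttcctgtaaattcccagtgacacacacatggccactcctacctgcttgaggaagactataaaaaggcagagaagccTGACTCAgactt
Il1b: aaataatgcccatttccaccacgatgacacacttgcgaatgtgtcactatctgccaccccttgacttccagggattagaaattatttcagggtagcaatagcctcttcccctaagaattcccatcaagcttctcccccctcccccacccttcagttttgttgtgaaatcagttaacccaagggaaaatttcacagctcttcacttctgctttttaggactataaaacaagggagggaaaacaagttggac
Il18: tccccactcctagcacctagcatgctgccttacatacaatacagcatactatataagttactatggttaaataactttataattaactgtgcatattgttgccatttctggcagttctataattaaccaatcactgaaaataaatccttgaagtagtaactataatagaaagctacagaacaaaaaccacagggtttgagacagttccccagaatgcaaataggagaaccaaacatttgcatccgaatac
Il33: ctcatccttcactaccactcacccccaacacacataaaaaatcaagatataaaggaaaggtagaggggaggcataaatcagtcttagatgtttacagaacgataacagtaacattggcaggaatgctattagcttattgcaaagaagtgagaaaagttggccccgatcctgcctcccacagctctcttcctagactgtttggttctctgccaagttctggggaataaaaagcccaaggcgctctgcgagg
Il1rn: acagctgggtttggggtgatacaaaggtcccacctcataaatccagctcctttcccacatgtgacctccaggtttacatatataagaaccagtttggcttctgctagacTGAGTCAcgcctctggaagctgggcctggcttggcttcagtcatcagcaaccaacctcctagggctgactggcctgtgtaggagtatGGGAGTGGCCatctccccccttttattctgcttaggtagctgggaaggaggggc
The capitals in the Il1a line mark TGACTCA, which matches TGANTCA, a motif of the AP-1 type, 12 to 6 bases before the start site. Those in the Il1rn line mark TGAGTCA, also of the AP-1 type, and GGGAGTGGCC, which matches the motif of the NF-kB type (GGGA, then any 4 bases, then CC). No match was found in the windows of Il1b, Il18 and Il33 shown. Both strands were searched, TTCNNNGAA, of the GAS type, was searched as well, and matches did not overlap. Of 32851 RefSeq windows of the same length, 6.75% held the AP-1 type motif, 17.6% the NF-kB type and 7.02% the GAS type. Of all 16 windows of the 10 genes, 2, 2 and 1 held them. A match is a description of letters and not evidence of binding.

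Among co-receptors and binding proteins, of 5 measured genes 0 were called higher and 2 lower in IMQ against mock, and 3 higher and 0 lower in vanillin against IMQ. Of all probes 24.0% were higher and 29.6% lower in the first comparison, and 24.3% and 17.0% in the second. Markers of 3 tissues had counts of the same directions. Skeletal muscle markers gave 0 higher and 5 lower of 6 and then 5 higher and 0 lower, adipocyte markers 0 and 6 of 7 and then 6 and 1, and endothelial markers 0 and 5 of 7 and then 4 and 0. The part of these tissues in the co-receptor values was not tested. Il18bp, a secreted protein that neutralises interleukin-18, read 9.32, 9.37 and 9.11 with vanillin, 8.41, 8.51 and 8.24 in IMQ and 9.74, 9.47 and 9.46 in mock skin. The 3 groups did not overlap, with IMQ lowest. It fell by 1.17 ± 0.12 in IMQ relative to mock (SE, limma adjusted p = 9.11e-05) and was 0.88 ± 0.12 higher with vanillin than in IMQ (SE, limma adjusted p = 0.00170).

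Within arrays Il18 minus Il18bp was 2.75 higher in IMQ than in mock, and changed by -0.84 in vanillin against IMQ. The groups did not overlap in either comparison. The exact permutation p was 0.1, the smallest value that 3 against 3 arrays allow, so that test cannot decide. Sigirr, a receptor of the family that restrains its signalling, changed by -1.04 ± 0.12 in IMQ against mock (SE, limma adjusted p = 0.000163). In vanillin against IMQ it was 0.48 ± 0.12 higher (adjusted p = 0.0146), a call lost without IMQ replicate 1 (adjusted p = 0.0628) or 3 (0.0606) or vanillin replicate 2 (0.0507). Without any 1 of these 3 arrays the count of co-receptor genes called for vanillin against IMQ was 1.

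Il1rap, the accessory chain of the interleukin-1 and interleukin-33 receptors, gave 0.09 ± 0.14 for IMQ against mock (adjusted p = 0.638) and was 0.44 ± 0.14 higher with vanillin than in IMQ (limma adjusted p = 0.0393). That second call was lost in 5 of the 6 fits that left out 1 array of these groups (adjusted p = 0.0547 to 0.123) and was not seen on either dimmer probe of Il1rap (0.01 and 0.14). The interleukin-18 receptor chains Il18r1 (-0.53 and 0.22) and Il18rap (0.89 and -0.20) were called in neither comparison, although Il18r1 was called lower in IMQ than in mock without IMQ replicate 1 (-0.77, adjusted p = 0.0358). Il18rap, at intensity percentile 10.4, read 6.18, 6.34 and 6.27 with vanillin, 6.44, 6.62 and 6.31 in IMQ and 6.23, 4.12 and 6.36 in mock skin. Its difference of IMQ against mock was 0.17 without mock replicate 2 (adjusted p = 0.288), and it was called with array weights (1.93, adjusted p = 0.000736). A dimmer probe of Il18r1 was called higher with vanillin than in IMQ (0.36, adjusted p = 0.0189).

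**Figure D3:**
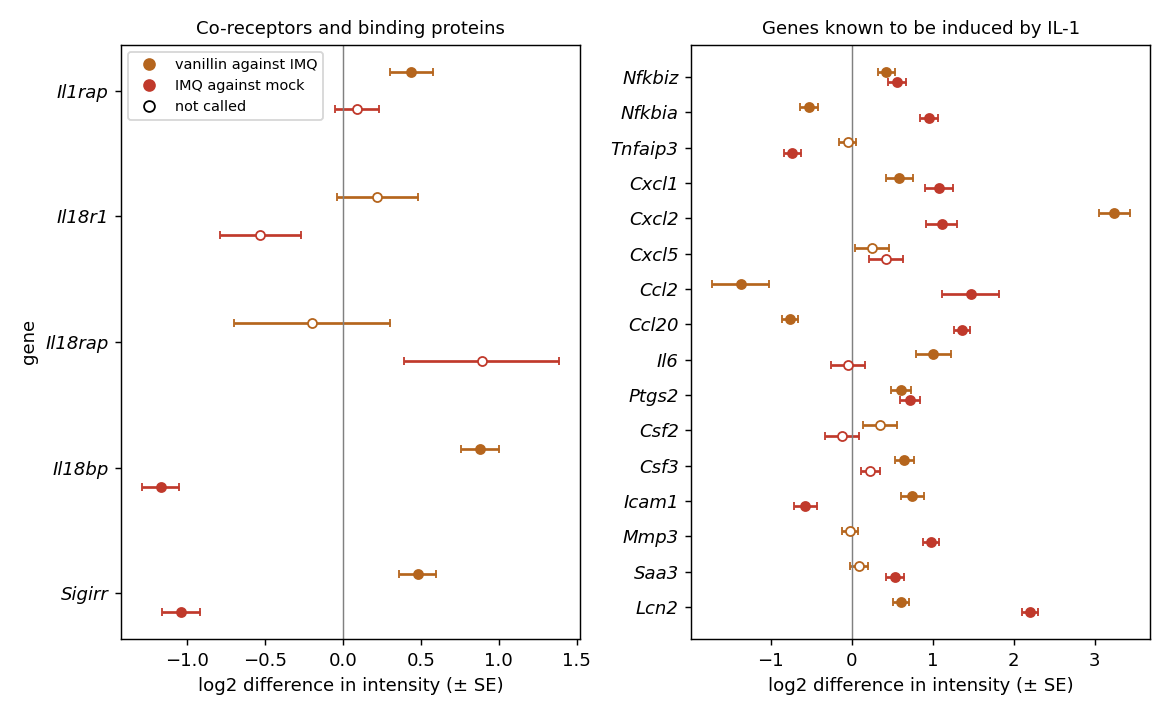
Log2 difference in intensity ± SE (limma, 9 arrays) of vanillin against IMQ and IMQ against mock, for co-receptors and binding proteins (left) and genes known to be induced by interleukin-1 (right), filled where called. Il18bp and Sigirr lie below 0 for IMQ against mock and above 0 for vanillin against IMQ. Cxcl2 has the largest difference shown, 3.24 for vanillin against IMQ.

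Genes known to be induced by interleukin-1 rose in most cases with imiquimod. Of 16 measured, 10 were called higher and 2 lower in IMQ against mock (median 0.64), beside 24.0% and 29.6% of all probes. In vanillin against IMQ 8 were higher and 3 lower (median 0.39), beside 24.3% and 17.0% of all probes. Nfkbiz, an atypical IkB protein needed for secondary response genes, rose by 0.56 ± 0.11 in IMQ over mock and by 0.43 ± 0.11 with vanillin over IMQ (adjusted p = 0.0138), a call lost without IMQ replicate 1 (0.0510) or 3 (0.0551). Nfkbia, the inhibitor of NF-kB, rose by 0.95 ± 0.11 and then differed by -0.53 ± 0.11 with vanillin. Tnfaip3, which ends NF-kB signalling, fell by 0.73 ± 0.10 in IMQ relative to mock and gave -0.05 ± 0.10 with vanillin (adjusted p = 0.712). Cxcl1, a neutrophil attractant, rose by 1.08 ± 0.17 in IMQ and by 0.59 ± 0.17 with vanillin (adjusted p = 0.0247), and this second call was lost without any 1 IMQ array or vanillin replicate 1 or 2 (adjusted p = 0.0531 to 0.0767). Within this list genes called higher and genes called lower with vanillin both occurred, as they did over all probes.

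The signal chain shared by the receptors had 13 measured genes. Of these 6 were called higher and 4 lower in IMQ against mock, and 4 higher and 2 lower in vanillin against IMQ. Over all probes the shares were 24.0% and 29.6%, and then 24.3% and 17.0%. The list medians of 0.00 and 0.02 lay near those of all probes (-0.04 and 0.03). Without IMQ replicate 3 the counts were 5 higher and 1 lower, and 2 higher and 1 lower. Irak2, a kinase that sustains the signal, rose by 1.14 ± 0.10 in IMQ over mock, and Irak3, a restraining member of the family, by 0.93 ± 0.09. Neither was called for vanillin against IMQ (-0.22 and 0.02), although Irak2 was without vanillin replicate 3 (-0.31, adjusted p = 0.0194). Traf6, the ubiquitin ligase that follows the kinases, rose by 1.21 ± 0.11 in IMQ and fell by 0.57 ± 0.11 with vanillin relative to IMQ. The brightest probe of Irak1 gave -0.54 in IMQ against mock (adjusted p = 0.0183), lost without IMQ replicate 1 (0.0552) or 3 (0.0680), while its other probes gave 0.08 and -0.45. For vanillin against IMQ that probe gave 0.64 (adjusted p = 0.0133, or 0.0543 without IMQ replicate 3), and the others gave -0.08 and 0.02.

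Of 13 other inflammasome and pyroptosis genes 3 were called higher and 5 lower in IMQ against mock, and 4 higher and 2 lower in vanillin against IMQ. Among all probes 53.6% were called in the first comparison (24.0% higher, 29.6% lower) and 41.2% in the second (24.3% higher, 17.0% lower). These gene counts use the brightest probe, and some dimmer probes differed. In IMQ against mock P2rx7 gave -0.75 on its brightest probe and -0.22, 0.63, 0.87 and -0.27 on the dimmer ones. The brightest Mefv probe gave 0.21 and then -0.11, without a call. Its dimmer probes gave -0.93 and 0.36, and then 0.92 and 0.01. The sensor gene Nlrp1a rose by 1.92 ± 0.11 in IMQ over mock and fell by 1.55 ± 0.11 with vanillin relative to IMQ (limma adjusted p = 0.000210). Nlrp1b is a close paralog, and whether its probe shares sequence with that of Nlrp1a was not checked. It gave 0.24 ± 0.09 and 0.22 ± 0.09 and was called in neither comparison. For IMQ against mock it was called without any 1 of the vanillin arrays (lowest adjusted p = 0.0300). Nlrc4, a sensor of bacterial proteins, fell by 0.53 ± 0.11 in IMQ relative to mock and was 0.74 ± 0.11 higher with vanillin than in IMQ. Aim2, a sensor of cytosolic DNA, fell by 0.80 ± 0.10 in IMQ and was 0.61 ± 0.10 higher with vanillin.

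Of 8 measured proteases known to cut cytokines of this family, 2 were called higher and 2 lower in IMQ against mock, and 3 higher and 0 lower in vanillin against IMQ. The shares of all probes were 24.0% and 29.6%, and then 24.3% and 17.0%. The mast cell chymase Cma1 fell by 1.28 ± 0.13 in IMQ relative to mock and gave 0.44 ± 0.13 with vanillin (adjusted p = 0.0255), lost without IMQ replicate 1 or 3 or vanillin replicate 1 or 2 (adjusted p = 0.0507 to 0.0837). Prtn3, a protease of neutrophil granules, fell by 0.69 ± 0.10 in IMQ and was 0.51 ± 0.10 higher with vanillin. Neither Elane (0.19 and 0.17) nor Ctsg (-0.03 and 0.15), of the same granules, was called in these comparisons.

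Type 2 genes known from cells that carry the interleukin-33 receptor were in total not called more often than probes in general. Of 10 measured genes 3 were called higher and 1 lower in IMQ against mock (median 0.05). Of all probes 53.6% were called there, 24.0% higher and 29.6% lower. In vanillin against IMQ 2 were higher and 1 lower (median 0.18), beside 41.2% of all probes called, 24.3% higher and 17.0% lower. For IMQ against mock the brightest Hpgds probe gave -0.12 and was not called, while a dimmer one gave -1.23 (limma adjusted p = 0.000173). The cytokine genes Il4 (-0.02 and 0.36), Il5 (0.03 and 0.21) and Il13 (-0.51 and 0.41) were called in neither comparison. Il4 was called for vanillin against IMQ without vanillin replicate 3 (0.45, adjusted p = 0.0345), and Il13 for IMQ against mock without mock replicate 2 (-0.84, adjusted p = 0.0336). With array weights Il4 was also called for vanillin against IMQ (0.52, adjusted p = 0.00457), beside 61.3% of all probes called. Il9 fell by 0.60 ± 0.14 in IMQ relative to mock. In vanillin against IMQ it gave 0.41 ± 0.14 (adjusted p = 0.0482), a call lost without any 1 array other than mock replicate 1 and IMQ replicate 2 (adjusted p = 0.0529 to 0.156). It was lost in 11 of 16 alternatives in all, also with quantile normalization (0.0509), 50 added before log2 (0.25, adjusted p = 0.0719), the trended prior (0.0654) and the replicate block (0.0603). The Il4 probe was at intensity percentile 6.0 and the Il9 probe at 13.8, so differences could have been missed.

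Markers of cells that can make or bind these cytokines are given beside Il1b and Il33, as counts called higher and lower in each comparison. In bulk tissue fewer cells of a type and less RNA per cell cannot be told apart. As background, 24.0% of all probes were called higher and 29.6% lower in IMQ against mock, and 24.3% and 17.0% in vanillin against IMQ. Beside Il1b, neutrophil markers gave 3 higher and 2 lower of 8 in IMQ against mock, and 6 higher and 0 lower in vanillin against IMQ, or 3 higher without IMQ replicate 3. Their summed log2 intensity was 16.75 to 16.92 with vanillin, 16.94 to 16.99 in IMQ and 12.88 to 13.05 in mock skin, a sum led by S100a9, which keratinocytes also make. Monocyte and macrophage markers gave 4 higher and 2 lower of 7 in IMQ against mock, and 2 higher and 1 lower in vanillin against IMQ, or 1 higher and 0 lower without IMQ replicate 1. Their sums were 14.74 to 14.80 with vanillin, 14.86 to 14.91 in IMQ and 14.54 to 14.64 in mock skin.

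Beside Il33, fibroblast markers gave 2 higher and 5 lower of 7 in IMQ against mock, and 3 higher and 1 lower in vanillin against IMQ. Their sums were 17.56 to 17.62 with vanillin, 17.49 to 17.53 in IMQ and 17.97 to 18.07 in mock skin. Endothelial markers gave 0 higher and 5 lower of 7 in IMQ against mock, 3 lower without mock replicate 2 or IMQ replicate 1, and 4 higher and 0 lower in vanillin against IMQ, 2 higher without IMQ replicate 3. Their sums were 13.91 to 13.98, 13.56 to 13.64 and 14.24 to 14.33 in vanillin, IMQ and mock skin. Suprabasal keratinocyte markers gave 5 higher and 0 lower of 7 in IMQ against mock. For vanillin against IMQ limma called 0 of 7 (1 at an unadjusted p under 0.05, and 0 to 1 called with 1 array left out), and their sums were 20.31 to 20.41 with vanillin, 20.32 to 20.35 in IMQ and 19.75 to 19.82 in mock skin. None of the marker probes in these lists was at 0, and the part of these cells in the results for Il1b and Il33 was not tested. The counts beside Il33 stand against the same shares of all probes as those beside Il1b.

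The genes most alike in pattern were found by the root mean square difference over the 9 arrays between log2 values, each gene centred on its own mean, among 10314 brighter genes. For Il1b the closest was Serpinb6d, a serine protease inhibitor gene of clade B, at 0.0827 log2 units, followed by Ttc39a and Eif4ebp2 at 0.156 each. Serpinb6d averaged 11.08 ± 0.15 with vanillin, 10.45 ± 0.07 in IMQ and 9.50 ± 0.14 in mock skin (SD, n = 3 arrays each). For Il18 they were Otud7a (0.0560), Slitrk6 (0.0783) and the glucose transporter gene Slc2a1 (0.0813), which read 14.39 ± 0.09, 14.33 ± 0.08 and 12.81 ± 0.01 in vanillin, IMQ and mock skin. For Il33 they were Pla2g4e (0.170), a phospholipase gene, Ptges (0.187), which encodes the terminal synthase of prostaglandin E2, and Cdhr1 (0.198). Ptges averaged 14.15 ± 0.19 with vanillin, 13.55 ± 0.03 in IMQ and 11.55 ± 0.19 in mock skin. It was picked for its likeness to Il33 on these same arrays, so a shared order of groups follows from the choice.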

How the data were processed

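Per the labels' protocols, each of 9 RNA samples carried the dye Cy5 on an array of its own. The deposited table holds linear probe intensities, normalised between arrays by the authors: medians ran from 629 to 631, and sorted columns differed by at most 3.45% above an intensity of 100. Such values cannot show a change of total signal. The submitters' processing notes name limma without a version, and of scanner, background correction and filters nothing further is given here. Of 26423 probes 20377 had 1 gene symbol, 0 several and 6046 none. Symbols were updated through RefSeq (18213 current, 2126 synonyms, 38 kept). The probe-to-gene pairs are those of the platform annotation, which can be old, and probe sequences were not checked.

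The fits used log2 intensities with a floor of 1. In R 4.3.3, limma 3.58.1 estimated 3 group means per probe from all 9 arrays, and p-values were adjusted over all probes after Benjamini-Hochberg. The procedure was tested on simulated data. A gene with several probes was led by the brightest. The within-array differences were tested by exact permutation. The genes of the system and the lists were chosen with earlier results of these data known. All measured genes of the system and all co-receptors are named, with the first 4 measured genes of each other pathway list and the 3 genes most alike to Il1b, Il18 and Il33. Alternatives changed normalisation, dim-probe filter, offset, prior, array weights, arrays in the fit, replicate block, probe choice and threshold, and left out each array.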

Additional observations from a re-analysis of the deposited data

How the results depend on the processing

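For the 9 genes in 3 comparisons, 430 of 456 values under an alternative kept their direction and side of the threshold, 14 gained a call, 9 lost one and 3 changed sign. The genes called were 6 to 8 for IMQ against mock, 3 to 4 for vanillin against IMQ and 7 to 8 for vanillin against mock when 1 array was left out. At an adjusted p under 0.01 the first count was 5, beside 39.0% of all probes (53.6% at 0.05). With array weights the second was 8, beside 61.3% of all probes (41.2% without weights). Over all probes, leaving out 1 array gave 11551 to 15901, 6576 to 12805 and 5507 to 7767 calls, with the lowest counts for vanillin against IMQ without IMQ replicate 3 (6576) and IMQ replicate 1 (6923). The cause was not tested. Nlrp3 for vanillin against mock, 0.26 and not called, became -0.38 with array weights, -0.08 without mock replicate 1 and -0.16 without vanillin replicate 3 (-0.16 to 0.52 with 1 array left out).

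Same-numbered arrays showed no sign of pairing, although so few arrays cannot exclude it. Correlations of their deviations from group means ran from -0.265 to 0.222, and those of other pairs from -0.180 to 0.261. With the replicate number as a block the genes called were 7, 4 and 7, and 13609, 9968 and 6224 probes were called. The block took the call of Casp1 for IMQ against mock (adjusted p = 0.0530), Il1rap (0.0575), Il9 (0.0603) and Eif4ebp2 (0.0604) for vanillin against IMQ, and added Il1r1 there (0.0499).

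Within-array differences kept their direction. With 1 array left out they ran, for IMQ against mock, from 0.48 to 0.77 for Il1b minus Il1rn, 0.65 to 0.79 for Il1a minus Il1rn, 2.63 to 2.83 for Il18 minus Il18bp and 1.49 to 1.92 for Il1r1 minus Il1r2. For vanillin against IMQ they ran from 0.24 to 0.53, -0.62 to -0.47, -0.92 to -0.75 and -0.61 to -0.51.

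Named genes and list counts were put through the same alternatives after the data were seen. Of values that changed sign none had been called. With array weights these were Il5 (-0.12) and Il13 (0.31) for IMQ against mock, and Il18r1 (-0.14), Elane (-0.22), Il13 (-0.06) and Slc2a1 (-0.02) for vanillin against IMQ. With 1 array left out the values ran, for IMQ against mock, from -0.26 to 0.49 for Elane, -0.09 to 0.04 for Ctsg, -0.13 to 0.07 for Il4 and -0.10 to 0.11 for Il5, and for vanillin against IMQ from -0.05 to 0.45 for Il18r1, -0.02 to 0.08 for Irak3, -0.13 to 0.62 for Elane and -0.08 to 0.01 for Slitrk6. Dim probes limit what could be detected, Nlrp3 and Il4 among them.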

Other observations

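Markers of cell types not described above gave the counts of this section. Beside them, 24.0% of all probes were called higher and 29.6% lower in IMQ against mock, and 24.3% and 17.0% in vanillin against IMQ. T cell markers gave 5 higher and 0 lower of 7 in IMQ against mock, and 1 higher and 4 lower in vanillin against IMQ. The calls with vanillin were 2 without IMQ replicate 1 and 3 without IMQ replicate 2 or 3 or vanillin replicate 1. Foxp3, the factor of regulatory T cells, some of which carry the interleukin-33 receptor, rose by 1.61 in IMQ and fell by 1.07 with vanillin relative to IMQ. Mast cell and basophil markers, of further cells known to carry that receptor, gave 2 higher and 3 lower of 8 in IMQ against mock and 2 higher and 0 lower in vanillin against IMQ, with 0 to 4 calls when 1 array was left out (0 without IMQ replicate 1, 1 without IMQ replicate 3 or vanillin replicate 1 or 2, and 4 without vanillin replicate 3). Mcpt8, a basophil protease, rose by 0.91 in IMQ over mock and by 0.29 with vanillin over IMQ. Other genes of its list went both ways in IMQ against mock. Hdc (0.88) was called higher, and Kit (-0.84), Cpa3 (-0.44) and Cma1 (-1.28) were called lower. In vanillin against IMQ the list went both ways too. Cma1 (0.44) was also called higher. Of the genes not called, Fcer1a (0.36), Ms4a2 (0.21) and Hdc (0.23) gave positive differences, and Kit (-0.25), Tpsb2 (-0.20) and Cpa3 (-0.08) negative ones. Foxp3 and Mcpt8 were picked after their values were seen.

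Dendritic and Langerhans cell markers gave 3 higher and 2 lower of 7 in both comparisons, with 2 to 6 calls in each when 1 array was left out. For IMQ against mock there were 2 without IMQ replicate 1 or 3 and 3 without mock replicate 3. For vanillin against IMQ there were 2 without IMQ replicate 1 or vanillin replicate 1 or 2, and 3 without mock replicate 2 or IMQ replicate 2 or 3. Basal keratinocyte markers gave 2 higher and 3 lower of 7, and 0 higher and 1 lower, with 2 to 5 and 0 to 2 calls when 1 array was left out. The first was 2 without IMQ replicate 1 and 3 without mock replicate 2, and the second 2 without mock replicate 1 and 0 without mock replicate 2, vanillin replicate 1 or any 1 IMQ array. The skeletal muscle counts given above held in all 9 fits with 1 array left out.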
